A study of Mus musculus with 5 samples.

Results

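The respiratory chain genes of the mouse forelimb bud were taken from the table of all genes by their symbols: those that begin Nduf followed by a, b, c, s or v (complex I), Sdha to Sdhd (complex II), Uqcr (complex III), Cox4 to Cox8 (complex IV) and Atp5 (complex V). This gave 91 genes of 22653 with a symbol of their own, 45 in complex I, 4 in complex II, 8 in complex III and 17 each in complexes IV and V. For Ndufab1 and Ndufa13, which have a second row, the row with the higher mean was kept. The symbols also catch proteins that are no subunits: 7 assembly factors of complex I (the Ndufaf genes), Cox7a2l, a factor that joins complexes into supercomplexes, and Atp5s and Atp5sl, which lie outside the ATP synthase. Without these 10 genes 81 remain.

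The respiratory chain sits in the inner membrane of the mitochondrion. Complexes I and II take electrons from NADH and succinate, ubiquinone carries them to complex III and cytochrome c to complex IV, which reduces oxygen. Complexes I, III and IV pump protons, and complex V, the ATP synthase, lets them flow back to make ATP. Most subunits are encoded in the nucleus, and a core set of those in complexes I, III, IV and V is encoded by mitochondrial DNA. The mitochondrial set is not analysed here.

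Whole forelimbs were taken from mouse embryos of mixed C57BL/6 and Swiss Webster strain at E11.5, with 47 to 48 somites. The 3 samples of the control group carry no further genotype in the labels, and the 2 Prmt5cKO samples were Prx1Cre+/-;Prmt5c/c, in which both conditional copies of Prmt5, an arginine methyltransferase gene, meet a recombinase driven in the limb bud mesenchyme. Cells outside the mesenchyme are thus still in the tissue with the gene intact. The comparison asks which transcripts differ when this enzyme is lost from the mesenchyme. The authors deposited 1 FPKM value per gene and genotype (fragments scaled to transcript length and to the library total), the log2 fold of Prmt5cKO against control, and a q-value. Values for single samples, their spread and their depth are not analysed here, so a difference is judged by the authors' q alone, and whether that q measures the spread between embryos is unknown.

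Prmt5 stood at 40.9 FPKM (control) and 12.5 FPKM (Prmt5cKO), 30.6% of the control value. The limb mesenchyme markers Prrx1, Prrx2, Twist1, Msx1 and Tbx5 lay between 19.9 and 122 FPKM in both genotypes. The hindlimb genes Tbx4 and Pitx1 had 3.81 and 0.143 FPKM in control, against 2.95 and 0.268 in Prmt5cKO. Sex-linked transcripts separated the genotypes, with Xist at 87.3 and 0.392 FPKM and Ddx3y at 0.0840 and 21.8, so embryo sex and genotype cannot be told apart in any difference below. Of the other cell types, 9 of 11 tested macrophage markers rose and their summed level over 12 genes went from 35.2 to 64.4 FPKM. Markers of red cells summed to 9217 and 7336 FPKM over 10 genes (1 of 10 fell, Alas2) and those of muscle to 142 and 114 FPKM over 7 genes (2 of 7 fell, Myh3 and Tnnt1). Endothelial markers summed to 55.7 and 53.1 FPKM (7 genes, none of 5 tested passed) and surface ectoderm markers to 166 and 159 FPKM (7 genes, Epcam rose and Krt15 fell). Over all tested genes with a mean of 1 FPKM, 4.83% rose and 19.3% fell at a q under 0.05. The macrophage rises (81.8% of tested markers) lay far above the share of all genes that rose. The red cell falls lay below the share that fell, and the muscle falls (28.6%) lay above it on 2 genes. Counts of 1 or 2 genes in the red cell, muscle and ectoderm lists are too small to set apart from these shares. No marker on these lists was listed at 0. The part of any of these in the values below was not tested, and in whole forelimbs fewer cells of a type and less RNA per cell cannot be told apart.

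Nearly all respiratory chain genes had a similar level in both genotypes. Of the 91 genes 86 reached a mean of 1 FPKM, 83 of these were tested by the authors, and 4 passed a q under 0.05. Uqcrfs1 and Atp5g1 rose, and Ndufa6 and Atp5s fell, while 79 did not pass. Over all genes with a symbol of their own and a mean of 1 FPKM, 24.1% of 10617 tested genes passed, 4.83% upwards and 19.3% downwards, against 4.82%, 2.41% and 2.41% of the respiratory chain genes. Among tested genes with a mean of at least 50 FPKM, where 67 of the 83 lie, 19.5% of 1131 passed (4.16% up, 15.4% down), and 3 of the 67 did. At other settings the shares also lay below those of all tested genes, though the counts were higher at q under 0.1. At q under 0.01, 1 respiratory chain gene rose and none fell, against 16.8% of all tested genes (3.22% up, 13.6% down), and at q under 0.1, 3 rose and 4 fell, against 29.7% (5.98% up, 23.7% down). With a mean of at least 5 FPKM 2 rose and 1 fell, against 25.7% (5.17% up, 20.6% down), and with no minimum 2 rose and 2 fell, against 15.5% (3.13% up, 12.4% down). The only respiratory chain gene at least 1.5-fold from equal levels was Atp5s, 1.16% of the 86. Of all 11674 genes at a mean of 1 FPKM 9.73% were. At a mean of at least 50 FPKM 0 of 70 respiratory chain genes were, against 3.79% of 1346 genes.

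**Figure D1:**
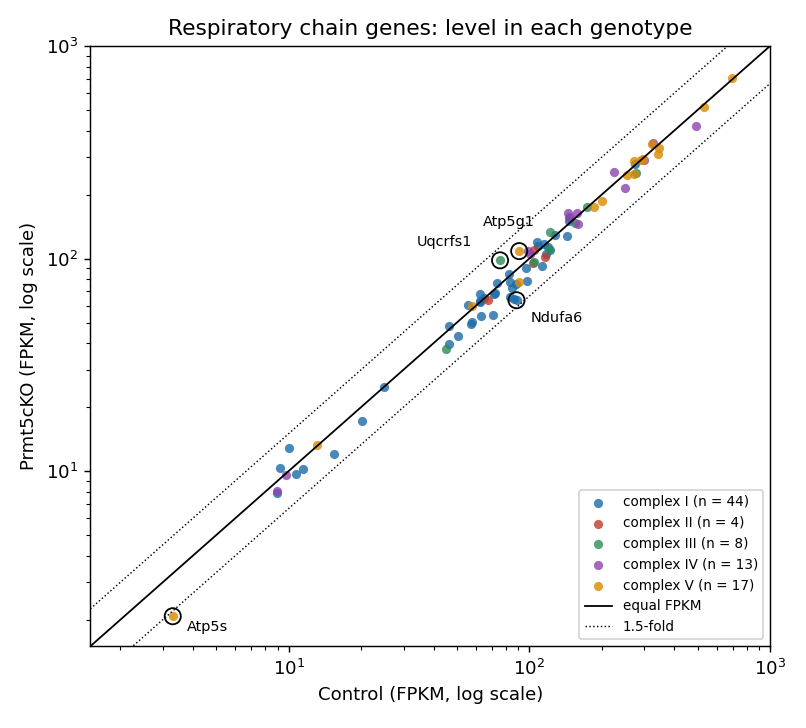
Level of the 86 respiratory chain genes with a mean of at least 1 FPKM in control (horizontal) and Prmt5cKO (vertical), both in FPKM on log axes. Each point is 1 gene coloured by complex, rings mark the 4 genes past the authors' q under 0.05, and all points but Atp5s lie between the dotted lines of 1.5-fold difference.

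The rise with the smallest q was that of Atp5g1, one of the genes for the membrane ring subunit c of the ATP synthase. It stood at 90.7 FPKM (control) and 108 FPKM (Prmt5cKO), and the authors' deposited table lists its log2 fold as 0.26 at q = 8.1e-05. Uqcrfs1 encodes the Rieske iron-sulfur protein, which takes electrons from ubiquinol in complex III. It stood at 75.5 FPKM (control) and 98.05 FPKM (Prmt5cKO), and the authors' deposited table lists its log2 fold as 0.38 at q = 0.0169. Ndufa6, an accessory subunit of complex I, went from 88.4 to 63.6 FPKM, and the authors' deposited table lists its log2 fold as -0.47 at q = 0.0164. Atp5s, listed by RefSeq as Dmac2l and no part of the ATP synthase, went from 3.30 to 2.08 FPKM, and the authors' deposited table lists its log2 fold as -0.67 at q = 0.0244. The subunits that passed therefore differed by under 1.5-fold, and Atp5s had the lowest level of the 86. In GRCm38 (mm10) with GENCODE M21, Atp5g1 lies on chromosome 11 from 96068852 to 96075670, Uqcrfs1 on chromosome 13 from 30540308 to 30545362 and Ndufa6 on chromosome 15 from 82350140 to 82354322, all on the minus strand. Atp5s lies on chromosome 12 from 69724950 to 69744660, on the plus strand. None of the 4 genes overlaps another annotated gene, whereas 38 of the 86 do, and for the strand setting of the authors' quantification, nothing is given in the sources used here.

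The sequences before these 3 subunit genes are shown because their products sit in different complexes and moved in different directions. Each is 100 bases long, 5′ to 3′ in the direction of the gene, from RefSeq on GRCm38.p6. Those of the 3 subunit genes end just before the more upstream of the RefSeq and GENCODE starts, and that of Cox6a1 lies further upstream, around its motif match, from -210 to -111 of the RefSeq start. Cox6a1, an accessory subunit gene of complex IV that did not pass (147 and 155 FPKM), is added for its match to NRF1, an activator of many respiratory chain genes. Capitals mark letters that match the core of the NRF1 motif, GCATGCGC, on either strand. They are chr11:96075671-96075770 for Atp5g1, chr13:30545363-30545462 for Uqcrfs1, chr15:82354323-82354422 for Ndufa6 and chr5:115349069-115349168 for Cox6a1, all on the minus strand.
Atp5g1: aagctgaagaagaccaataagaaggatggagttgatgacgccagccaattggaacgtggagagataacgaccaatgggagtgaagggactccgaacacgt
Uqcrfs1: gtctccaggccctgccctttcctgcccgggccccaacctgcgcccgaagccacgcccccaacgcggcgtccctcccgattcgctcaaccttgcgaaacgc
Ndufa6: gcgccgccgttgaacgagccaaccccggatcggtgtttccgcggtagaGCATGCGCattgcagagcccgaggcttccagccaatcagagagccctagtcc
Cox6a1: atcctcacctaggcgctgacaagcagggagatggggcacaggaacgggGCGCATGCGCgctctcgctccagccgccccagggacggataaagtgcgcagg

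Ndufa6, which fell, holds the NRF1 letters with their first base at position -83 from its RefSeq start, the base before the start being -1. The windows of the genes that rose hold none, and neither does that of Atp5s, which also fell. Whether the letters go with direction was not tested, and 4 genes are too few to tell. In Cox6a1 the motif is a palindrome that matches on both strands, with first bases at -162 and -160. Promoter windows of 300 bases (250 before the start and 50 after it) were matched for 73 of the 86 genes, with 79 windows in all. The NRF1 core was in 12 of the 79 windows (15.2%), against 5.27% of 11209 windows of all genes at a mean of 1 FPKM and 2.71% of all 32851 windows. CCGGAAG, the core of the motif of the ETS factor GABP, was in 17 windows (21.5%), against 17.1% and 8.86%. AAGATGGC, the core of the YY1 motif, was in 12 windows (15.2%), against 4.37% and 2.75%. Windows could hold more than one of the motifs, and each was searched on both strands. The Atp5g1, Uqcrfs1 and Atp5s windows hold none of the 3 motifs. These matches describe letters only.

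Complex I, which oxidises NADH, was the largest group. Of its 44 genes at a mean of 1 FPKM 1 of 42 tested fell (Ndufa6), none rose and 2 were not tested. The fall is 2.38% of those tested, against 19.3% of all tested genes. As deposited, 27 of the 44 (61.4%) lay below their control level, against 69.8% of all 11674 genes. The median log2 ratio, computed as log2((Prmt5cKO FPKM + 1) / (control FPKM + 1)), was -0.10, where the median of all genes was -0.12, so that relative to all genes it was 0.01. The 7 nuclear core subunits form the conserved catalytic part of the matrix arm, and none of the 6 tested passed. Ndufv1, the NADH-binding flavoprotein, was at 88.4 FPKM (control) and 75.9 FPKM (Prmt5cKO), and the authors' deposited table lists its log2 fold as -0.22 at q = 0.219. Its iron-sulfur partner Ndufv2 was at 71.4 and 67.9 FPKM. Of the subunits that lead electrons to ubiquinone, Ndufs3 was at 71.9 and 68.9, Ndufs7 at 55.5 and 60.5 and Ndufs8 at 62.6 and 63.4. Ndufs1, the iron-sulfur subunit of the electron entry arm, was not tested and stood at 62.6 FPKM (control) and 62.4 FPKM (Prmt5cKO). The core thus held values on either side of equality, all within a log2 ratio of 0.22.

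The accessory subunits of complex I spread wider, from -0.47 (Ndufa6) to 0.15 in log2 ratio over 30 genes. Next to Ndufa6 at the low end were Ndufc1 (86.5 and 64.7 FPKM) and Ndufb10 (70.7 and 54.1 FPKM), both of the membrane arm, with q = 0.0845 and q = 0.0707 in the authors' deposited table. Ndufs6, an accessory subunit of the matrix arm, was at 83.1 and 65.9 FPKM with q = 0.119 in the authors' deposited table. Ndufa11 was the lowest subunit gene of complex I that reached 1 FPKM, at 20.1 and 17.1 FPKM. Ndufa4, grouped by its symbol but known as a subunit of complex IV, was the most abundant gene of the group at 275 and 280 FPKM, while its hypoxia-induced relative Ndufa4l2 stayed below the minimum at 0.211 and 0.312 FPKM. Ndufb11, which is X-linked, was not tested and stood at 82.0 and 84.3 FPKM. The other X-linked genes, Ndufa1 of complex I and Cox7b of complex IV, went from 62.9 to 53.9 FPKM and from 101 to 105 FPKM, and neither passed.

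The 7 Ndufaf genes, whose products help to assemble complex I, had lower levels, from 8.93 to 24.9 FPKM in control, and none passed. Ndufaf6 was at 9.99 and 12.8 FPKM, and the authors' deposited table lists its log2 fold as 0.36 at q = 0.0747. Ndufaf1 was at 15.4 and 12.1 FPKM, and the authors' deposited table lists its log2 fold as -0.35 at q = 0.192. Of the others, Ndufaf2 was the highest at 24.88 and 24.97 FPKM. Ndufaf5 was the lowest gene of complex I to reach the minimum, at 8.93 and 7.87 FPKM. Ndufaf3 stood at 11.5 and 10.3 FPKM, Ndufaf4 at 9.21 and 10.3 and Ndufaf7 at 10.7 and 9.73.

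**Figure D2:**
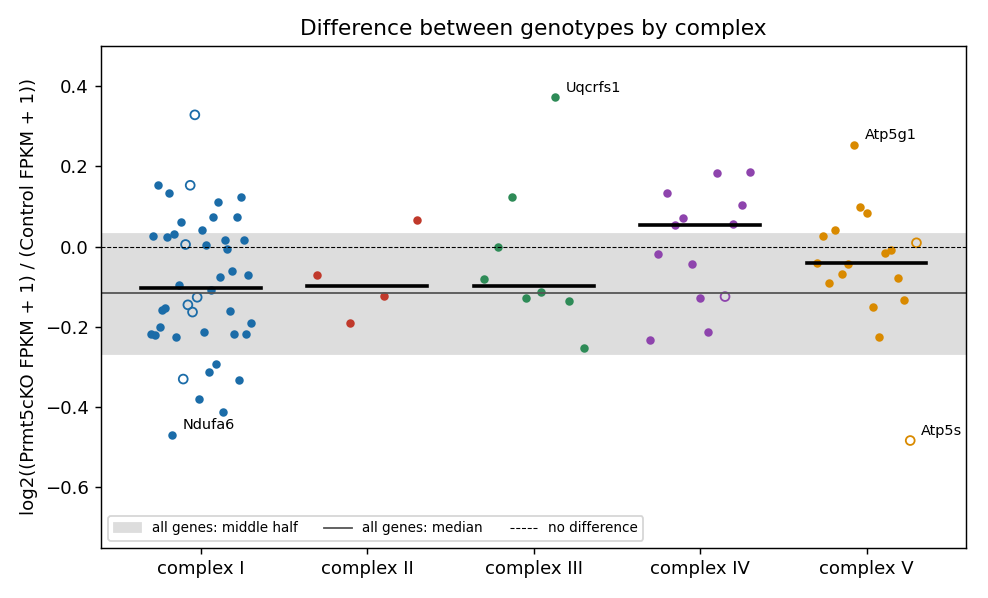
Log2((Prmt5cKO FPKM + 1) / (Control FPKM + 1)) of each of the 86 genes, by complex, with filled points for subunits and open points for other proteins caught by the symbols. Black bars are medians per complex (-0.10, -0.10, -0.10, 0.05 and -0.04 from complex I to V), the grey band and line are the interquartile range and median of all 11674 genes, and named points passed the authors' q under 0.05.

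Complex II, succinate dehydrogenase, links the citric acid cycle to the chain and has no subunit encoded in the mitochondrion. None of its 4 genes passed. The flavoprotein Sdha was at 67.1 FPKM (control) and 63.9 FPKM (Prmt5cKO), and the iron-sulfur protein Sdhb at 116 and 101. The membrane anchors Sdhc and Sdhd were at 104 and 95.1 FPKM and at 105 and 110 FPKM. The largest difference was that of Sdhb, and the authors' deposited table lists its log2 fold as -0.19 at q = 0.305.

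In complex III 1 of 8 tested genes rose (Uqcrfs1) and none fell. This 12.5% rests on 1 gene and is too small a count to set apart from the 4.83% of all tested genes that rose. The other 7 had log2 ratios from -0.25 to 0.12. The core proteins Uqcrc1 and Uqcrc2 had 121 and 111 FPKM and 104 and 96.4 FPKM. Uqcrq, with the lowest level of the complex, was at 45.1 and 37.7 FPKM, and Uqcrh, the hinge protein next to cytochrome c1 and the most abundant, at 278 and 253 FPKM. Uqcrfs1 stood apart from the rest of the complex, of which Uqcrb was next highest at 122 and 133 FPKM with q = 0.601 in the authors' deposited table. Cyc1, the cytochrome c1 gene that the symbols leave out, had 53.8 and 58.7 FPKM and missed the threshold.

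Complex IV, cytochrome c oxidase, had 13 genes at a mean of 1 FPKM, and none of the 13 passed. Its median log2 ratio was 0.05, the only one of the 5 above 0 as deposited. Without the X-linked Cox7b it was 0.0171. All 5 medians lie above 0 once the median of all genes (-0.12) is subtracted. Relative to the median of genes of at least 50 FPKM (-0.06), complexes I to III stay below 0, at -0.0375, -0.0325 and -0.0325. The table holds adjusted values only, so no count at an unadjusted p can stand beside the counts of 0. Cox4i1, the most abundant gene of the complex, was at 494 FPKM (control) and 421 FPKM (Prmt5cKO), and the authors' deposited table lists its log2 fold as -0.23 at q = 0.160. Cox8a, at 224 and 255 FPKM, and Cox7a2, at 145 and 164 FPKM, were at the other end, and the authors' deposited table lists both at a log2 fold of 0.19, at q = 0.319 and 0.331. Cox7a2l was at 159 and 146 FPKM.

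Complex IV has subunits with alternative genes for different tissues, and the widely expressed one dominated in both genotypes. Cox4i2, an isoform that responds to oxygen, made up 1.93% of the Cox4i level in control and 2.23% in Prmt5cKO, at 9.74 and 9.60 FPKM. Cox6b2, an isoform best known from testis, made up 2.89% and 2.70% of the Cox6b level, at 8.92 and 8.07 FPKM, and was the lowest gene of the complex to reach the minimum. Cox6a1 made up 99.7% and 99.9% of its family. The heart and muscle isoforms Cox6a2 and Cox8b were below the minimum, with 0.389 and 0.0827 FPKM and 0.498 and 0.171 FPKM. Cox7b2 was at 0.0987 and 0.114 FPKM, and Cox8c was listed at 0 in both genotypes. Cox7a1 shares a row with another gene and so is no member. That row stood at 2.87 and 2.35 FPKM and was not tested.

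Complex V had the highest levels. Of its 17 genes at a mean of 1 FPKM 1 of 16 tested rose (Atp5g1), 1 fell (Atp5s, no subunit) and 1 was not tested. Each is 6.25% of those tested, beside 4.83% of all tested genes that rose and 19.3% that fell. The median log2 ratio was -0.04. The catalytic head gene Atp5b was the most abundant of all respiratory chain genes, at 694 FPKM (control) and 707 FPKM (Prmt5cKO), and its partner Atp5a1, not tested, was at 529 and 515. The other head genes were at 199 and 187 FPKM (Atp5c1), 57.7 and 59.5 (Atp5d) and 345 and 329 (Atp5e). Atp5d was the lowest subunit gene of the complex, and Atp5sl, the other gene outside it, was at 13.2 and 13.3 FPKM.

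The subunit genes of complex V outside the head lay on different sides of equality, and of these 10 genes only Atp5g1 passed. Atp5g1, Atp5g2 and Atp5g3 encode the same mature subunit c of the rotating ring with different import sequences, and all 3 lay above their control level. Atp5g2 was at 322 and 345 FPKM and Atp5g3 at 271 and 287, with q = 0.609 and q = 0.630 in the authors' deposited table. Atp5g1 supplied 13.3% of their summed level in control and 14.6% in Prmt5cKO, and the sum was 684 and 741 FPKM. The 4 genes of the peripheral stalk, which holds the head still, all lay below their control level as deposited, though Atp5f1 (log2 ratio -0.04) lies above the median of all genes (-0.12), and none passed. Atp5f1 was at 254 and 247 FPKM, Atp5h at 343 and 309, Atp5j at 90.9 and 77.7 and Atp5o at 273 and 248, with the smallest q, 0.278, for Atp5j in the authors' deposited table. The remaining genes Atp5j2, Atp5k and Atp5l were between 186 and 296 FPKM in control and between 176 and 293 in Prmt5cKO.

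Summed over its genes, complex V came to 4261 FPKM (control) and 4194 FPKM (Prmt5cKO) (98.4% of control), and complex I to 3457 and 3266 (94.5%). Complex IV summed to 2419 and 2391 FPKM (98.8%), complex III to 1075 and 1049 (97.6%) and complex II to 391 and 370 (94.5%). All 86 genes together came to 11603 and 11269 FPKM, which is 1.85% and 1.91% of the level of all rows that name a gene. All 5 sums were lower in Prmt5cKO, each by less than the sum of all 11674 genes, which stood at 93.5% of control. By median level per gene in control the order was complex V (271 FPKM), IV (158), III (121), II (104) and I (72.5), and it was the same in Prmt5cKO, at 248, 164, 122, 98.2 and 66.9. The ranges of the complexes overlapped, so this order holds for medians and not for single genes. Across the 86 genes the rank order of levels was kept between the genotypes (Spearman's rho = 0.986, a description over genes of the same 2 sets of values).

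**Figure D3:**
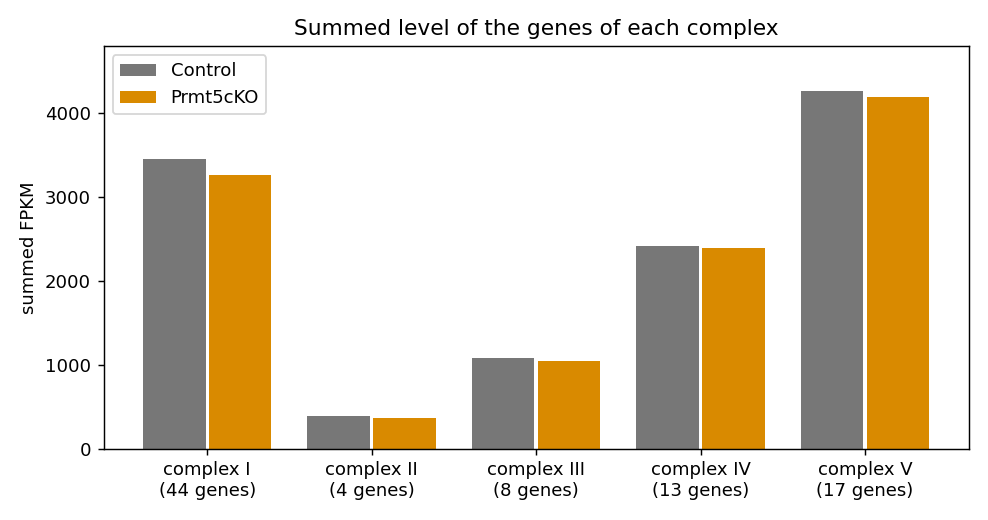
Summed FPKM of the measured genes of each complex (vertical, linear scale from 0) in control (grey) and Prmt5cKO (orange), without error bars since there is 1 value per genotype. Complex V is highest, at 4261 and 4194 FPKM, and each pair of bars differs by less than 6%.

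The small size of the differences shows in the distribution as well. Of the 83 tested genes 71 (85.5%) had a log2 fold change between -0.25 and 0.25, against 59.0% of all tested genes. A q of 0.5 or more was listed for 49 (59.0%), against 41.0%. This band is centred on 0, while the median log2 fold of all tested genes was -0.13. The 86 genes and all 11674 genes also differ in level, with control medians of 99.5 and 11.8 FPKM. At a mean of at least 50 FPKM the median absolute log2 fold was 0.114 over 67 tested respiratory chain genes and 0.136 over all 1131 tested genes. The interquartile range of the log2 ratio was 0.21 over the 86 genes and 0.30 over all 11674 genes, and 0.21 and 0.27 at a mean of at least 50 FPKM. Respiratory chain transcripts are short: the longest annotated transcript had a median of 1200 bases over 85 genes, against 3475 over 10753 genes. Among 452 tested genes with a mean of at least 50 FPKM whose longest transcript had at most 1896 bases, the upper quartile of the respiratory chain genes, 18.6% passed, against 2 of the 52 respiratory chain genes among them.

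Other large complexes gave similarly low counts. Of 71 tested genes for proteins of the cytosolic ribosome 1 rose and none fell, of 74 for the mitochondrial ribosome 3 rose and 1 fell, and of 34 for proteasome subunits 1 rose and 1 fell. The respective shares past the threshold were 1.41%, 5.41% and 5.88%, beside 4.82% of the respiratory chain genes and 24.1% of all genes. A low share was thus not special to the respiratory chain. The median log2 ratios of these groups were -0.01, 0.04 and -0.05, beside -0.07 for the respiratory chain genes.

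**Figure D4:**
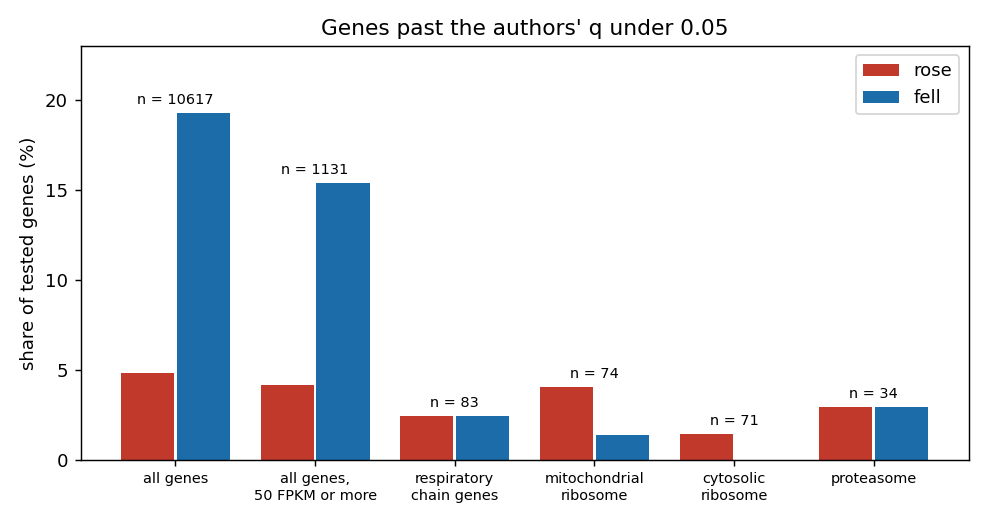
Share of tested genes past the authors' q under 0.05 (vertical, percent, from 0) that rose (red) or fell (blue), for all genes, for those with a mean of at least 50 FPKM, and for 4 groups of genes, with the number tested above each pair. In all genes 4.83% rose and 19.3% fell, while in the respiratory chain genes 2.41% did each.

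Genes that serve the chain without being counted as members were sorted into lists. Of 13 tested genes for electron carriers 3 fell and none rose: Coq2 and Coq9, which take part in making ubiquinone, and Etfb, which brings electrons from fatty acid oxidation. Coq2 stood at 25.4 and 20.2 FPKM, Coq9 at 20.4 and 16.0 and Etfb at 74.2 and 57.1, and the authors' deposited table lists log2 folds of -0.33, -0.35 and -0.38 at q = 2.4e-04, 0.0357 and 0.0440. That share, 23.1%, is near the 19.3% of all genes that fell. Cycs, the gene of cytochrome c, had 41.9 and 50.6 FPKM and missed the threshold (authors' deposited table: q = 0.103). Of 13 citric acid cycle genes Idh3g, a regulatory subunit of isocitrate dehydrogenase, fell from 47.2 to 39.1 FPKM (authors' deposited table: log2 fold -0.27 at q = 0.00290), and 12 did not pass. Idh3b, another subunit gene of that enzyme, stood at 63.7 and 51.1 FPKM, and the authors' deposited table lists it at q = 0.0685.

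Of the assembly factors outside the Ndufaf genes, Acad9, needed to build complex I, fell from 28.4 to 22.8 FPKM (authors' deposited table: log2 fold -0.32 at q = 0.00409), 1 of 5 tested. This 20.0% is near the 19.3% of all tested genes that fell. Foxred1 (14.7 and 12.9 FPKM) and Nubpl (15.19 and 11.95 FPKM) came next. None of 2 tested factors for complex II, 4 for complex III, 18 for complex IV and 4 for complex V passed. Surf1, a complex IV factor, had the smallest q of these, 0.0547 in the authors' deposited table, at 16.8 and 12.4 FPKM, followed among complex IV factors by Fastkd2 (15.4 and 17.8 FPKM) and Coa5 (20.9 and 17.3 FPKM). Among 10 tested nuclear regulators Pprc1, a coactivator of the PGC-1 family induced by growth signals, rose from 6.14 to 8.97 FPKM, and the authors' deposited table lists its log2 fold as 0.55 at q = 2.4e-12. Its relative Ppargc1a (PGC-1 alpha) fell from 1.57 to 0.990 FPKM, close to the minimum level of 1 FPKM, and the authors' deposited table lists its log2 fold as -0.67 at q = 0.0127. The share of these regulators that passed, 20.0%, is no higher than the 24.1% of all tested genes. Of the genes linked to the motif cores searched above, Yy1 was at 25.3 and 26.5 FPKM, Gabpb1, the GABP partner subunit that does not bind DNA, at 27.6 and 28.1, neither of which passed, and Nrf1, not tested, at 33.9 and 27.8. The ETS subunit gene of GABP, Gabpa, has no row of its own and is not analysed here. Polg, the mitochondrial DNA polymerase gene, stood at 18.3 and 19.4 FPKM. Tfam, which packages and transcribes mitochondrial DNA, was at 22.8 and 23.8 FPKM.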

How the data were processed

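Per the submitters' processing notes, TopHat2 2.0.10, Bowtie2 2.1.0 and Cufflinks 2.1.1 were used with the build mm10; their roles, the gene annotation, the strand setting and the way replicates were combined remain not given in the sources used here. Per the file headers, the authors deposited FPKM for each genotype, their log2 fold change and a q-value. The deposited log2 folds differed from the ratio of the FPKM columns by at most 1.3e-05 over 20663 rows. Rows at a fold of 0 and a q-value of 1 were taken as untested. Rows that name no gene (15.5% of 28092) or several were left out, and 1 row was kept per symbol. A gene counted as changed at a mean of at least 1 FPKM and an authors' q under 0.05.

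With 1 deposited value per genotype, no test, SD or standard error was computed, depth is unknown, and a fit over samples, foreseen had there been such values, was not made. The members, lists and naming rule (members past the threshold, the highest and lowest per complex, isoform families, core subunits, untested genes and genes that are no subunits) were chosen with earlier results of these data known; genes outside the rule, such as those next to the threshold, were chosen after their values were seen. Motif and transcript length values used RefSeq GRCm38.p6 windows and GENCODE M21 (90 of 91 symbols matched). GENCODE names 9 pseudogenes after these genes, and the sharing of reads between copies is unstated. The counting and median steps were run on simulated data with folds and q-values set beforehand, which checks the code and not the authors' calls. Values of 2 genes that fall under the naming rule are not reported here. Python 3.11.15, pandas 2.3.3 and numpy 2.4.6 were used.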

Additional observations from a re-analysis of the deposited data

How the results depend on the processing

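Of the values recomputed under the alternatives, 170 kept their direction and moved by at most 0.05 (log2) or, for counts, by at most 1.5 times, 24 moved further and 6 reversed. Part of the 170 could not change, so this total is no measure of robustness. The lower row concerns only Ndufab1 and Ndufa13 of complex I, and the X-linked genes only complexes I and IV. Taking subunits only leaves complexes II and III as they were, and centred counts kept the authors' q. At q under 0.01 only Atp5g1 passed: rises in all complexes went from 2 to 1, falls from 2 to 0, falls in complexes I and V to 0 and rises in complex III to 0. At q under 0.1 there were 4 falls in all, with 1 rise and 3 falls in complex I. With a mean of at least 5 FPKM, or with subunits only, Atp5s drops out, which left 1 fall in all and 0 in complex V. Centring on the median of all genes (-0.12) reversed medians: 0.0460 over all genes of the chain and 0.0127, 0.0178, 0.0178 and 0.0752 for complexes I, II, III and V, with 0.169 for complex IV. Relative to genes of at least 50 FPKM (-0.06) the medians were -0.0042 over all and -0.0375, -0.0325, -0.0325, 0.119 and 0.0249 for complexes I to V, the last reversed. After quantile normalization the medians were -0.0024 over all, -0.0073 for complex I and -0.0374 for complex II, and the log2 ratios of the sums were -0.0270 and -0.0178 for complexes I and II. With no minimum level the complex IV median was 0.0001. The complex IV median was above 0 under each scaling, those of complexes I to III reversed under median centring alone, and that of complex V reversed under both centrings. Leaving out the X-linked genes, taking the lower row per symbol and pseudocounts of 0.1 and 0.01 changed no direction. Without the X-linked Cox7b, however, the complex IV median went from 0.0537 to 0.0171, a shift within the tolerance of 0.05. No paired analysis was possible because the table holds 1 value per genotype, and for the same reason no replicate could be left out. The background of short transcripts was chosen after seeing the data.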

Other observations

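Where the motif letters lay in the promoter windows was not even. All 7 matches to AAGATGGC, the core of the YY1 motif, in complex I windows lay after the RefSeq start on the gene's own strand, with their first base 23 to 39 bases past it. They belong to Ndufa3, Ndufa9, Ndufb8, Ndufc1, Ndufs4, Ndufs6 and Ndufs7. Over all respiratory chain windows 9 of 12 such matches lay after the start on that strand, and over the windows of all genes at a mean of 1 FPKM 223 of 508 (43.9%) did. The letters contain ATG, so matches there can lie at a start codon, which was not examined. For the NRF1 core 2 of 20 matches lay after the start on the gene's own strand.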
